A study of Mus musculus with 4 samples.

Results

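RNA of 10 genes around the transcription factor STAT3 was followed through the CD11b+ cells of a mouse tumor. They are the ligands Osm and Il10, the receptor chains Il6ra, Il6st, Il10ra and Il10rb, the kinase Jak1, the transcription factor Stat3 itself, and Socs3 and Bcl3, which STAT3 can induce. The genes were picked by symbol as parts of the pathway, with earlier results of these data known, and all 10 were found, with 1 row each, among the 32285 genes of the count matrices.

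The study compared bone marrow that lacked VISTA, an inhibitory receptor encoded by Vsir, with WT bone marrow. Chimeric mice of strain C57/BL6 were made with WT and VISTA KO marrow, were given MC38 colon carcinoma cells 6 weeks later, and had tumors of 9 to 10 mm at harvest. The study's title names STAT3, and the question put to the RNA here is how its pathway genes differ by cell class and genotype. Tumors were pooled, and staining for the CD45 variants CD45.1 and CD45.2 separated WT from KO cells, so the groups also differ in the allele of Ptprc, the CD45 gene. The labels do not say which genotype carried which variant, or whether a host carried marrow of 1 or both genotypes. Viable CD11b+ cells were sorted and 10000 were loaded for single-cell 3′ RNA sequencing with 3 antibody tags, giving 1 gene expression library for WT and 1 for VISTA KO. The other 2 of the 4 deposited samples are the tag libraries of the same cells. In such chimeras only blood cells come from the donor marrow, and pooling leaves no animal to serve as a replicate. Intervals below therefore cover counting error only, and no p-value was computed.

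Cytokines of the IL-6 family and IL-10 bind receptor chains that carry JAK kinases, and these phosphorylate STAT3, which then enters the nucleus. IL-6 is bound by the IL-6 receptor alpha chain (Il6ra) and signals through gp130 (Il6st), which oncostatin M (Osm) also uses. IL-10 signals through Il10ra, which docks JAK1, paired with the shared chain Il10rb. SOCS3 is induced by STAT3 and shuts off gp130 but not the IL-10 receptor. BCL3 is an atypical IκB protein of the nucleus that is induced by STAT3 and by NF-κB. In tumor myeloid cells this pathway is known for its link to suppressive function.

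The WT library held 61753547 UMIs (unique molecular identifiers, one per captured RNA molecule) in 10241 barcodes and the VISTA KO library 80366761 in 15257. After filtering, 10193 WT and 15140 KO cells remained, with medians of 4692 and 4212.5 UMIs per cell, and 46 barcodes occurred in both libraries. Although the labels call them myeloid suppressor cells, the sort also held NK cell-like, T cell-like and dendritic cells by their markers. Classes were built by clustering and named from marker RNA. In WT and KO these were monocyte-like (3422 and 2665 cells), macrophage-like (1598 and 5402), mixed neutrophil and macrophage (1938 and 768, droplets carrying both marker sets), cDC2-like (595 and 842), mature DC-like (151 and 218), NK cell-like (625 and 580), neutrophil-like (378 and 75), T cell-like (124 and 36) and basophil or mast cell-like (39 and 78). Clusters 3, 4 and 10 could not be named. Cluster 3 (365 and 2254 cells) was led by Ifi202b, Nos2 and Ccl12, of which Ifi202b also separated the libraries as a whole (5.79 CPM in WT and 558.4 in KO over all kept cells, 18.1 and 610.4 within cluster 3). Cluster 4 (423 and 1843) was led by Ly6i and Cxcl9, and cluster 10 (535 and 379) held shallow cells with medians of 1212 and 1400 UMIs. Cluster 10 carried RNA of both the neutrophil gene S100a8 (1120 CPM in WT and 357.3 in KO) and the macrophage gene C1qa (1260 and 1268). Vsir itself stood at 136.5 counts per 1000000 UMIs (CPM) in WT and 46.2 in KO cells, and was lower in KO in each group with a ratio. Vsir in KO cells thus remained at 33.8% of the WT level, and the source of these UMIs was not tested.

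A STAT dimer binds the palindrome TTCNNNGAA, in which N is any base, and TTCCNGGAA is a narrower form of it. The sequences of Socs3 and Bcl3 are shown because these genes differed together between the libraries. They are the 250 bases before the RefSeq start in GRCm38.p6, 5′ to 3′, with any TTCNNNGAA in capitals.
Socs3, minus strand, chr11:117969367-117969616: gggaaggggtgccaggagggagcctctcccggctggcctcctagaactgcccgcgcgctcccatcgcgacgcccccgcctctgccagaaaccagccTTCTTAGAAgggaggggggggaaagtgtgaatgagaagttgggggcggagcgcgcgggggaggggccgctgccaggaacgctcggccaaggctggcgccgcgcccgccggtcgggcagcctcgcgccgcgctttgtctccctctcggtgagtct
Bcl3, minus strand, chr7:19822756-19823005: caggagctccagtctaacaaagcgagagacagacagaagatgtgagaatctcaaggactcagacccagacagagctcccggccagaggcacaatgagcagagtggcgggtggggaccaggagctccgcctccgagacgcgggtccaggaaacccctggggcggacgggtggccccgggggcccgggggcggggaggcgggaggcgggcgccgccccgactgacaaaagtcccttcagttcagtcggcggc
The Socs3 stretch holds the palindrome once, as TTCTTAGAA, its first base lying 154 bases before the start. The annotated Socs3 gene reaches to base 117970336, beyond this stretch, so the start used for the window lies inside the annotated gene. Windows of 300 bases (250 before to 50 after the start) were found for 6 of the 10 genes, namely Stat3, Socs3, Jak1, Il6ra, Il6st and Bcl3. Of these 6 windows, 1 held TTCNNNGAA, against 8.30% of all 32851 mouse promoter windows, and none held TTCCNGGAA, found in 1.15% of all. A match is a stretch of letters and no evidence of binding.

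**Figure D1:**
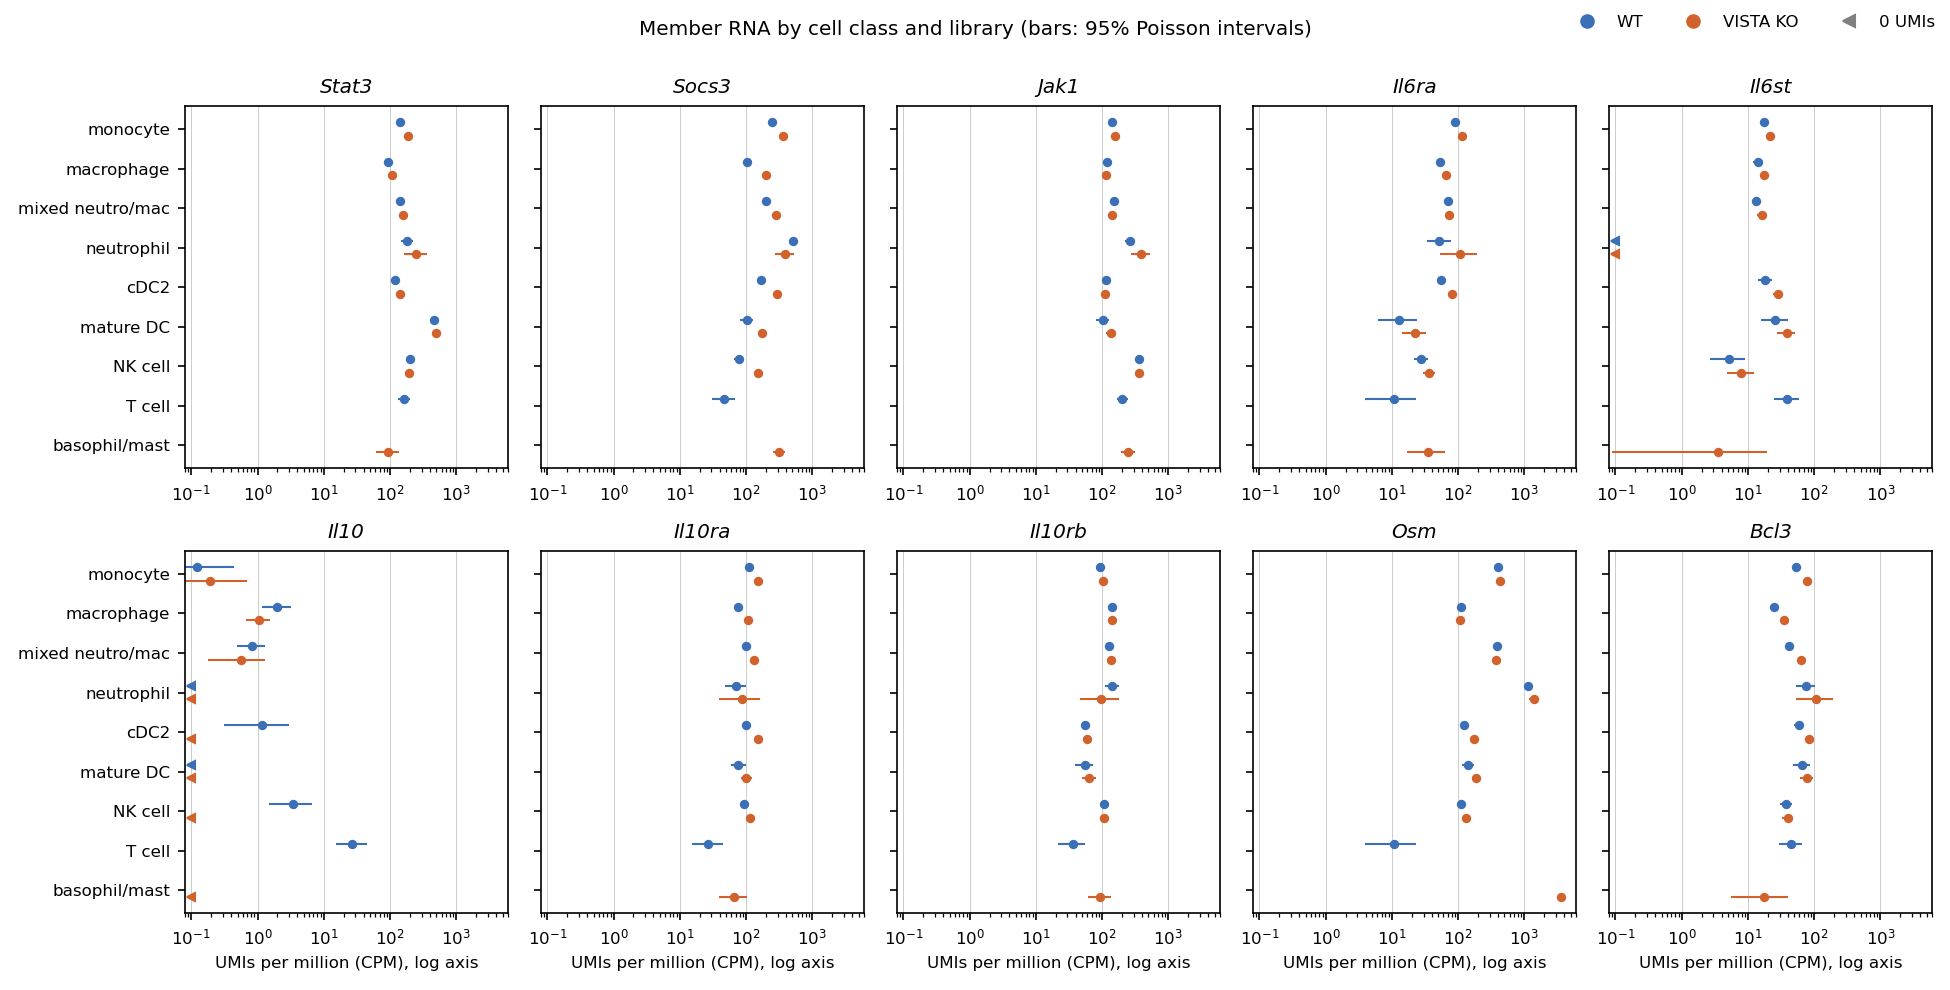
RNA level of each of the 10 genes in each named cell class, as CPM of the class on a log axis, with 95% Poisson intervals (blue WT, orange VISTA KO, triangles at the left edge 0 UMIs, classes of a library under 50 cells left out). Stat3 peaks in mature DC-like cells, Jak1 is high in NK cell-like and neutrophil-like cells, and Osm spans from 10.8 CPM in WT T cell-like cells to 3604 in KO basophil or mast cell-like cells.

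Of the ligands, Osm was abundant and depended on cell class far more than on genotype. Basophil or mast cell-like cells held 2782 CPM in WT and 3604 CPM in KO, and every 1 of the 39 WT cells and 97.4% of the 78 KO cells had an Osm UMI. Neutrophil-like cells followed with 1149 and 1375 CPM, which is 2.42-fold and 2.62-fold below the basophil or mast cell-like level in WT and KO. Monocyte-like cells held 398.4 and 433.0 CPM, the mixed droplets 379.9 and 366.8 CPM, and macrophage-like cells only 111.3 and 104.9 CPM. The lowest level was in WT T cell-like cells, at 10.8 CPM from 6 UMIs (median 3210 UMIs per cell). NK cell-like cells held 110.8 and 130.0 CPM. The macrophage gene C1qa stood at 470.5 and 963.6 CPM in them, against 37.7 CPM in WT T cell-like cells. The T cell-like level therefore sets no bound on Osm RNA carried from other cells into NK cell-like cells. In the 416 WT and 137 KO of them without any UMI of the macrophage genes C1qa, C1qb and C1qc, a reading added after the data were seen, Osm was at 65.4 and 124.4 CPM (log2 0.94, past the rule given below), so the WT level and the ratio moved with C1q RNA.

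Between the libraries Osm differed little in most groups. A class sum cannot tell more expressing cells from more RNA per cell. A gene counts here as higher or lower in KO where its CPM differs by at least 1.25-fold and the 95% interval of the ratio leaves out no difference, among genes with at least 20 UMIs in the 2 libraries together. By this rule Osm was higher in cDC2-like cells, where it stood at 123.6 CPM in WT and 172.3 in KO (log2 ratio KO over WT 0.48, 95% interval 0.31 to 0.66). It was also higher in mature DC-like cells (141.4 and 183.5 CPM, log2 0.37) and in cluster 4 (150.3 and 195.8 CPM, log2 0.38). In monocyte-like cells the log2 ratio was 0.12 and in macrophage-like cells -0.09, both short of the rule. Over all kept cells Osm stood at 314.8 CPM in WT and 255.4 in KO (log2 -0.30), beside a fall in summed RNA of 12 neutrophil markers from 4542 to 1206 CPM and of neutrophil-like cells from 3.71% to 0.495% of kept cells.

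Il10, which encodes the ligand of the IL-10 receptor, was close to the detection limit, with 69 UMIs in the whole WT library and 52 in the KO library. In WT the 69 UMIs lay in macrophage-like cells (18), the mixed droplets (18), T cell-like cells (15), NK cell-like cells (8), cDC2-like cells (4), cluster 10 (3), monocyte-like cells (2) and cluster 3 (1). By CPM the WT T cell-like cells led, with 26.9 CPM and a UMI in 8.06% of 124 cells, above NK cell-like cells at 3.41 and macrophage-like cells at 1.995 CPM. The 416 WT NK cell-like cells without C1q UMIs held no Il10 UMI, so all 8 lay in cells that carried C1q RNA. In KO, 24 UMIs lay in macrophage-like cells, 18 in cluster 3 and none in the 580 NK cell-like cells, where 3 UMIs would be 1.13 CPM, nor in the 36 T cell-like cells, where they would be 37.5 CPM. Monocyte-like cells held 2 UMIs in each library, so neither library showed more than trace Il10 in them.

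Over all kept cells Il10 was lower in KO, at 0.648 CPM against 1.12 in WT (log2 -0.78, interval -1.34 to -0.25). Within macrophage-like cells it stood at 1.04 CPM against 1.995, with an interval that reached past no difference (log2 -0.96, -1.88 to 0.03). In the Pf4, Fcrls and Folr2 macrophage-like cluster (cluster 5), which held most of these UMIs in WT, the counts were 16 in 918 WT cells and 14 in 1324 KO cells (log2 -0.54). T cell-like cells were 1.22% of kept WT cells and 0.238% of kept KO cells. Il10 lies at chr1:131019845-131024970 (mm10), 7.04 Mb from Ptprc, so effects of VISTA and of a flanking interval carried with the CD45 allele cannot be told apart for this gene.

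Among the receptors, the IL-6 receptor alpha chain was mainly myeloid, while the IL-10 receptor alpha chain was also present in NK cell-like cells. Il6ra was highest in cluster 10 (170.0 and 144.7 CPM) and monocyte-like cells (89.3 and 116.3 CPM), and stood at 52.8 and 64.5 CPM in macrophage-like cells. It was lowest in mature DC-like cells (12.97 and 22.27 CPM), NK cell-like cells (27.7 and 36.3 CPM) and WT T cell-like cells (10.8 CPM). In NK cell-like cells without C1q UMIs Il6ra stood at only 13 UMIs (10.77 CPM) in WT and 2 UMIs (4.88 CPM) in KO, and KO no longer lay above WT. The monocyte-like level was 6.89-fold the mature DC-like level in WT and 5.22-fold in KO. Il10ra was likewise highest in cluster 10 (237.2 and 286.4 CPM), above the intervals of the other groups with at least 50 cells, and lowest in WT T cell-like cells (26.9 CPM). NK cell-like cells held 94.2 and 115.6 CPM, and 96.1 and 107.3 CPM in those without C1q UMIs. Across 20 points (11 groups of cells in 1 or both libraries), log2 CPM of Il6ra and Il10ra correlated with Pearson's r = 0.823, the highest of the 45 pairs of these genes. These points share libraries and depth, and the correlation is a description only.

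Il10ra was higher in KO in 5 of the 9 groups below the level of all kept cells. Monocyte-like cells held 112.0 CPM in WT and 150.8 in KO (log2 0.43, 0.33 to 0.53), macrophage-like cells 75.8 and 107.8 (log2 0.51, 0.39 to 0.63), and cDC2-like cells 101.2 and 151.5 (log2 0.58, 0.39 to 0.77). The mixed droplets (101.5 and 129.5 CPM, log2 0.35) and cluster 3 (112.1 and 146.7 CPM, log2 0.39) also passed. In the other 4 groups KO lay above WT without passing the rule, with log2 ratios from 0.19 in cluster 4 to 0.38 in mature DC-like cells. The partner chain Il10rb passed the rule in fewer groups. It stood at 139.1 and 143.3 CPM in macrophage-like cells, at 92.1 and 104.8 in monocyte-like cells, and of the 9 groups passed only in cluster 10 (137.4 and 189.9 CPM, log2 0.47). Within classes it passed together with Il10ra in monocyte-like cluster 0 (86.6 and 109.0 CPM, log2 0.33) and macrophage-like cluster 7 (142.9 and 180.3 CPM, log2 0.33). In cDC2-like cells without C1q UMIs it stood at 49.6 and 84.2 CPM (log2 0.77) and passed, against 55.1 and 59.5 CPM in the whole class.

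Il6ra was higher in KO in monocyte-like cells (log2 0.38, 0.27 to 0.49) and in cDC2-like cells, at 56.0 and 82.0 CPM (log2 0.55, 0.29 to 0.81). The signalling chain gp130 (Il6st) was scarce in all classes. Its level ran from 0 UMIs in neutrophil-like cells, where 3 UMIs would be 6.23 CPM in WT and 28.9 in KO, to 25.9 and 38.3 CPM in mature DC-like cells and 39.4 CPM in WT T cell-like cells, which also held collagen and other fibroblast marker RNA of 909 CPM. Il6st was higher in KO over all kept cells (14.96 and 18.74 CPM, log2 0.32), in cDC2-like cells (18.3 and 28.5, log2 0.63), in cluster 4 (10.4 and 17.7, log2 0.72) and in the mixed droplets (13.1 and 16.4, log2 0.33). Neutrophil-like cells thus combined the second highest Osm level with no detected RNA of the chain through which oncostatin M signals. They were only 378 WT and 75 KO cells, with medians of 1202 and 1394 UMIs. In KO the 28.9 CPM of 3 UMIs lies above the monocyte-like Il6st level of 21.9 CPM, so their 0 UMIs cannot set these cells apart there.

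Jak1, the kinase docked to gp130 and Il10ra, was highest in lymphoid and granulocytic cells and nearly even between the libraries. NK cell-like cells held 365.7 CPM in WT and 358.2 in KO, 2.57-fold and 2.27-fold the monocyte-like level of 142.1 and 158.0 CPM. Neutrophil-like cells held 265.9 and 384.7 CPM, with overlapping intervals. Macrophage-like cells held 117.7 and 115.3 CPM and cDC2-like cells 112.5 and 111.2 CPM. Of the 9 groups only mature DC-like cells passed the rule (103.8 and 137.2 CPM, log2 0.39, 0.00 to 0.81).

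Stat3 RNA had its peak in mature DC-like cells, the Ccr7 and Fscn1 dendritic cells that leave tissue for lymph nodes. They held 467.0 CPM in WT and 493.6 in KO, 3.31-fold and 2.66-fold the level of monocyte-like cells. Among those with at least 1000 UMIs, each thinned to 1000 UMIs, 38.2% and 38.8% had a Stat3 UMI. The next groups were far lower and overlapped in their intervals, among them cluster 10 (235.2 and 238.2 CPM), NK cell-like (196.9 and 192.3) and neutrophil-like cells (180.7 and 250.1). Macrophage-like cells were the lowest of the large classes, at 93.1 and 108.8 CPM. Over the same 20 points the genes most like Stat3 in their pattern were Birc2 (r = 0.927), Stk4 (0.927) and Ptpn2 (0.927), among 7029 genes with a mean of at least 10 CPM.

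Between the libraries Stat3 differed by the rule in 1 of the 9 groups. Monocyte-like cells held 141.3 CPM in WT and 185.6 in KO (log2 0.39, 0.31 to 0.48), and at 1000 UMIs the share of cells with a UMI was 13.4% and 18.6%. In macrophage-like cells the log2 ratio was 0.22 (0.11 to 0.34), in cDC2-like cells 0.26, in the mixed droplets 0.17, in mature DC-like cells 0.08 and in NK cell-like cells -0.03. Stat3 RNA was thus higher in KO monocytes and not lower in any group by the rule. RNA does not show how much STAT3 protein was phosphorylated.

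Socs3, the feedback inhibitor, was higher in KO in all 9 groups and over all kept cells. Monocyte-like cells held 243.3 CPM in WT and 367.4 in KO (log2 0.59, 0.53 to 0.66). Macrophage-like cells held 104.8 and 197.7 CPM (log2 0.92, 0.81 to 1.02), cDC2-like cells 168.8 and 293.7 (log2 0.80, 0.66 to 0.94), mature DC-like cells 103.8 and 172.8 (log2 0.73, 0.35 to 1.13), and NK cell-like cells 77.6 and 152.3 (log2 0.97, 0.72 to 1.23). The intervals of the levels did not overlap between the libraries in any of these classes. The mixed droplets (201.4 and 286.7 CPM, log2 0.51), cluster 3 (213.0 and 320.8, log2 0.59), cluster 4 (246.9 and 354.5, log2 0.52) and cluster 10 (143.5 and 202.0, log2 0.49) gave smaller ratios. Among the other 9 genes, none passed in more than 5 of the 9 groups.

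Among cells with at least 1000 UMIs, a larger share carried Socs3 RNA in KO also at equal depth. Unthinned shares below cover all cells of a class. At 1000 UMIs per cell the share with a Socs3 UMI was 18.4% in WT and 25.9% in KO among monocyte-like cells (45.5% and 52.8% unthinned), 9.34% and 17.3% among macrophage-like cells (32.1% and 41.2% unthinned), 16.6% and 23.6% among cDC2-like cells (45.9% and 56.5% unthinned), and 5.26% and 11.9% among NK cell-like cells (13.9% and 30.9% unthinned). WT T cell-like cells, the class with the least Socs3, held 46.6 CPM and had a UMI in 6.42% of cells at that depth. In WT, neutrophil-like cells led all classes with 504.8 CPM, and in KO their level of 384.7 CPM overlapped that of monocyte-like cells. The genes most like Socs3 over the 20 points were Gm9733 (r = 0.911), Wfdc17 (0.908) and Oas1a (0.890). For Il10 they were Arl6ip1 (0.872), H19 (0.855) and Gm8369 (0.848). The Il10 pattern rests largely on 1 point, WT T cell-like cells at 26.9 CPM, with the next WT group at 3.41 CPM.

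Bcl3 was higher in KO in 5 of the 9 groups and over all kept cells (44.6 and 58.1 CPM, log2 0.38). Monocyte-like cells held 53.6 CPM in WT and 78.0 in KO (log2 0.54, 0.40 to 0.68), macrophage-like cells 24.7 and 35.2 (log2 0.51, 0.30 to 0.73), cDC2-like cells 58.0 and 84.5 (log2 0.54), the mixed droplets 41.9 and 63.0 (log2 0.59) and cluster 4 44.3 and 64.8 (log2 0.54). The macrophage-like call did not hold when each library was clustered alone (log2 0.10) or without cluster 1 (0.29). Its level was highest in neutrophil-like cells (74.8 and 105.8 CPM) and, apart from 5 UMIs in the KO basophil or mast cell-like cells, lowest in macrophage-like cells among groups of at least 50 cells. In NK cell-like cells it was nearly even, at 37.5 and 40.1 CPM (log2 0.09).

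**Figure D2:**
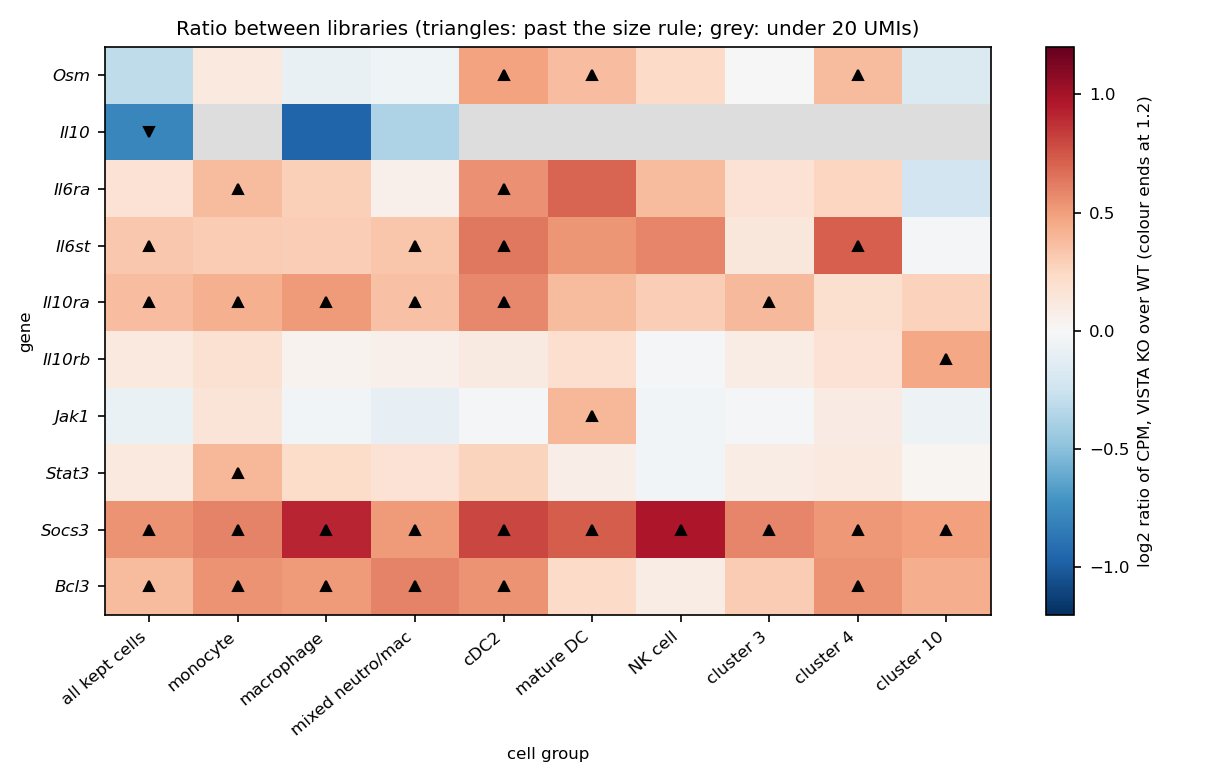
Log2 ratio of CPM, VISTA KO over WT, for each gene (rows, ordered by role) in all kept cells, in 6 named classes and in clusters 3, 4 and 10 (columns), with triangles where the size rule was passed and grey where the libraries together held fewer than 20 UMIs. The Socs3 row is marked in each column, with 0.97 in NK cell-like cells at its top, and the 1 mark pointing down is Il10 in all kept cells.

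Read by class, the share of these genes past the rule was set against that of all genes. Over all kept cells 4 of the 10 were higher (Socs3, Il6st, Il10ra and Bcl3) and 1 lower (Il10), where 14.6% of 13653 genes were higher and 7.73% lower. In monocyte-like cells 5 of 9 were higher (Stat3, Socs3, Il6ra, Il10ra and Bcl3) and none lower, against 14.4% and 6.68% of 10707 genes, and their median log2 ratio was 0.38 against 0.07 for all genes. In macrophage-like cells 3 of 10 were higher (Socs3, Il10ra and Bcl3) and none lower, against 13.1% and 5.54% of 11548 genes, with a median of 0.25 against 0.05. cDC2-like cells had the most, with 6 of 9 higher (Socs3, Il6ra, Il6st, Il10ra, Osm and Bcl3) against 10.6% of genes, and a median of 0.54 against 0.05. The mixed droplets had 4 of 10 higher (11.7% of genes) and cluster 4 had 4 of 9 (10.0%). Mature DC-like cells had 3 of 9 (10.7%), cluster 3 had 2 of 9 (8.11%), cluster 10 had 2 of 9 (4.69%) and NK cell-like cells 1 of 9 (10.7%), which was Socs3. The lower side held 4.48%, 5.07%, 3.09%, 4.06%, 4.37%, 4.56% and 4.96% of genes in the mixed droplets, cDC2-like cells, mature DC-like cells, NK cell-like cells and clusters 3, 4 and 10, and none of the 10. With a size rule of 1.5-fold Socs3 alone passed in monocyte-like and in macrophage-like cells and none of the 10 over all kept cells, where 5.48%, 5.98% and 5.37% of genes were higher. The pathway is one the study itself names, and the counts describe 2 libraries.

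**Figure D3:**
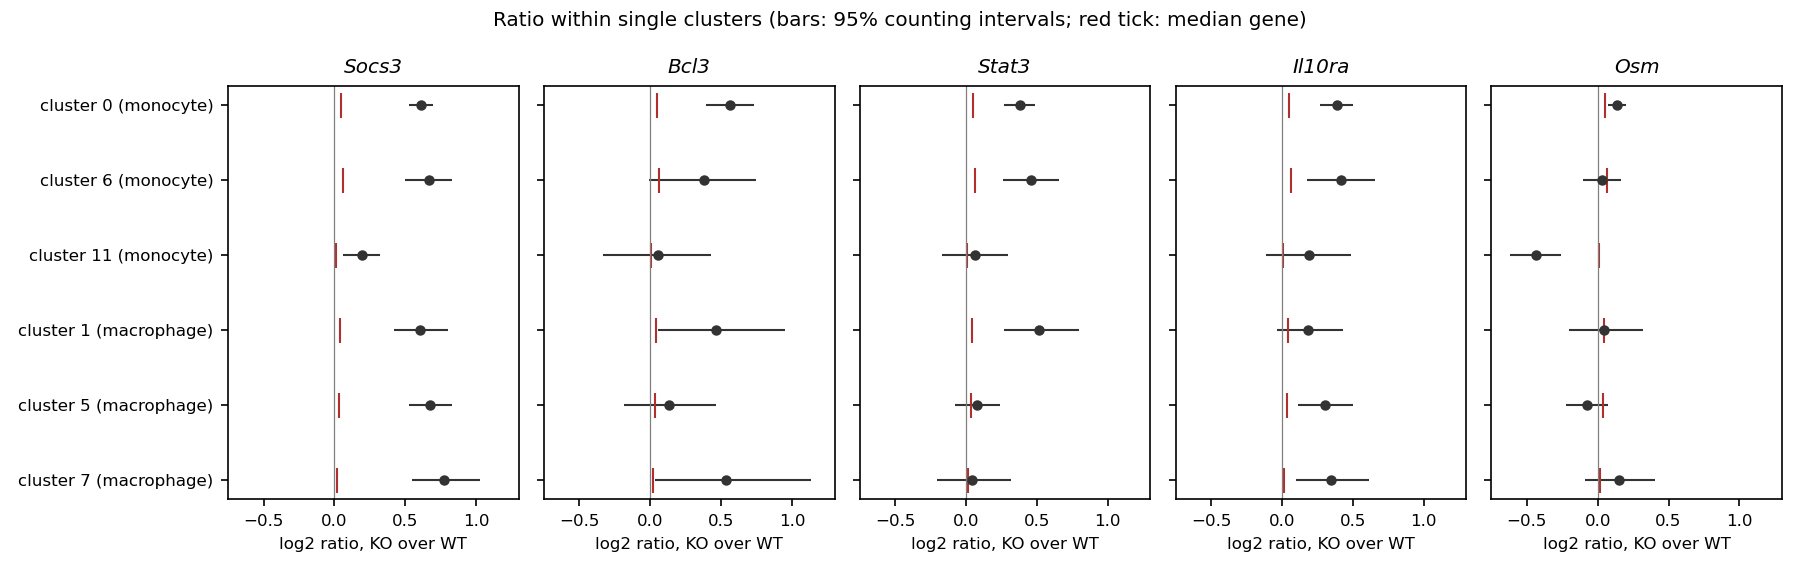
Log2 ratio of CPM, VISTA KO over WT, with 95% counting intervals for Socs3, Bcl3, Stat3, Il10ra and Osm within each cluster that makes up the monocyte-like and macrophage-like classes, with the median ratio of all genes as a red tick. Socs3 lies to the right of the median gene in all 6 clusters, from 0.19 in cluster 11 to 0.78 in cluster 7, while Osm lies below 0 in cluster 11 at -0.44.

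The classes pool clusters whose sizes differed between the libraries, so the ratios were also read within clusters. Monocyte-like cells were cluster 0 (Chil3, Vcan and Cxcl10; 1827 WT and 1591 KO cells), cluster 6 (Chil3, Plac8 and Ly6c2; 1122 and 711) and cluster 11 (Ceacam1, Spn and Adgre5; 473 and 363). Socs3 log2 ratios there were 0.61, 0.67 and 0.19, the last short of the rule, and those of Stat3 0.38, 0.46 and 0.06. Cluster 11 had the highest Socs3 of the 3 in both libraries, with 552.0 CPM in WT and 630.8 in KO, the highest Il6ra (149.4 and 197.4 CPM) and the highest Il6st (48.7 and 45.2 CPM). Its Osm was lower in KO, at 391.5 and 289.2 CPM (log2 -0.44, -0.62 to -0.26), whereas in cluster 0 it stood at 478.4 and 526.0 CPM (log2 0.14). At 1000 UMIs 23.4% of WT and 20.5% of KO cells of cluster 11 had an Osm UMI, with overlapping intervals.

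Macrophage-like cells were cluster 1 (C1q and MHC class II genes; 294 WT and 2637 KO cells), cluster 5 (Pf4, Fcrls and Folr2; 918 and 1324) and cluster 7 (Ms4a7, Cd72 and Siglec1; 386 and 1441). Cluster 1 made up 2.88% of WT and 17.4% of KO cells, and its Socs3 level was the highest of the 3, so the class ratio of 0.92 contains this shift. Within clusters the Socs3 log2 ratios were 0.60 in cluster 1 (158.0 and 241.1 CPM), 0.67 in cluster 5 (89.6 and 143.3) and 0.78 in cluster 7 (106.7 and 183.5). Bcl3 passed the rule in cluster 1 (log2 0.46) and cluster 7 (0.54) and stood at 23.9 and 26.3 CPM in cluster 5 (log2 0.14). Stat3 passed in cluster 1 (80.9 and 116.6 CPM, log2 0.52) and had log2 ratios of 0.08 and 0.04 in clusters 5 and 7. Of these 3 clusters Il10ra passed in cluster 7 alone (100.5 and 128.4 CPM, log2 0.35), with 0.19 in cluster 1 and 0.30 in cluster 5.

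Other RNA moved with these ratios. In monocyte-like cells the nuclear RNA Malat1 went from 7887 to 11301 CPM, the summed RNA of 12 macrophage markers from 2667 to 3594 CPM (9 of 12 higher) and that of 10 immediate early and dissociation genes from 5402 to 6014 CPM. In macrophage-like cells that last sum went the other way, from 3458 to 3289 CPM, while Malat1 went from 10826 to 16263 CPM. In cDC2-like cells the macrophage markers went from 1417 to 2228 CPM (11 of 12 higher) and in NK cell-like cells from 3553 to 6965 CPM (12 of 12). The part of Malat1 and of the immediate early genes in the ratios was not tested. When the pathway genes were left out of the clustering, an unnamed cluster led by Dleu2, Malat1 and Trps1 appeared. It held 138 WT and 1338 KO cells, with medians of 826 and 778 UMIs and 3.29% and 3.645% mitochondrial UMIs. Macrophage-like cells then numbered 1162 and 3129. The main clustering set no such cluster apart, and the part of these cells in its classes and ratios was not tested. For macrophage RNA, cells without any UMI of C1qa, C1qb or C1qc were read alone, a choice made after the data were seen. Socs3 then stood at 50.5 CPM in 416 WT and 141.4 CPM in 137 KO NK cell-like cells (log2 1.49), at 163.4 and 399.7 CPM in 333 and 211 cDC2-like cells (log2 1.29) and at 262.7 and 373.0 CPM in 1782 and 655 monocyte-like cells (log2 0.51). These NK cell-like cells had medians of 2221 and 2098 UMIs, the cDC2-like cells 5365 and 4108, and the monocyte-like cells 4243 and 3603. The full classes held 625 and 580 NK cell-like, 595 and 842 cDC2-like, and 3422 and 2665 monocyte-like cells. Depth and the part of each class kept thus differed between the libraries.

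**Figure D4:**
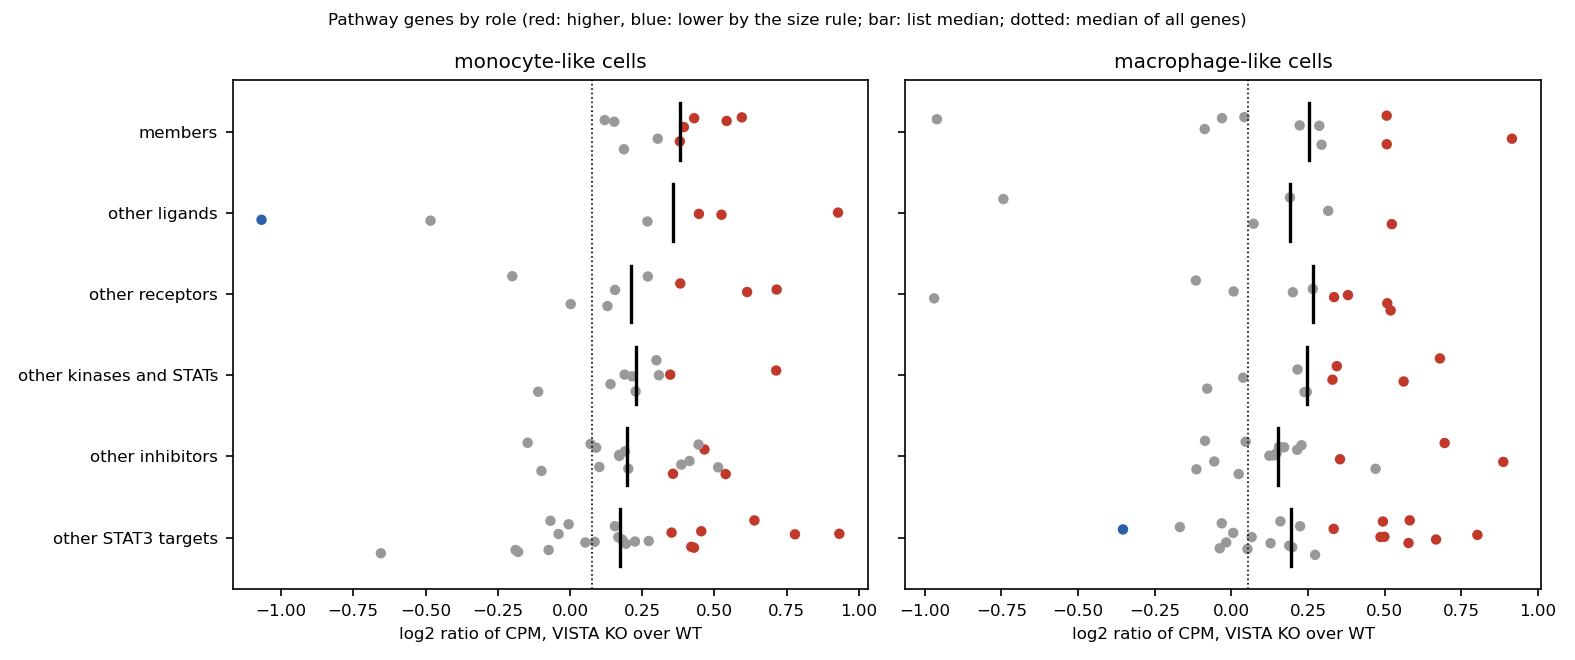
Log2 ratio of CPM, VISTA KO over WT, of every gene tested in 6 role lists in monocyte-like (left) and macrophage-like cells (right), 1 point per gene, red where higher and blue where lower by the size rule, with list medians as bars and the median of all genes as a dotted line. All list medians lie between 0.15 and 0.38, to the right of the dotted lines at 0.07 and 0.05.

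Another 73 genes of the pathway were read in the same way, by 5 lists. Of the other STAT3 targets, 7 of 22 were higher in KO monocyte-like cells and none lower, and 8 of 22 were higher and 1 lower in macrophage-like cells, beside the 14.4% and 13.1% of all genes that were higher in these classes. Over all kept cells 5 of 22 were higher, beside 14.6% of all genes, with a list median of 0.05 against 0.08. In the mixed droplets 3 were higher and 2 lower, beside 11.7% and 4.48%, with 0.05 against 0.08. In NK cell-like cells 9 of 22 were higher (10.7% of all genes), in cDC2-like cells 7 of 21 (10.6%) and in cluster 3 8 of 22 (8.11%), with none lower. Mature DC-like cells had 4 of 19 higher (10.7%), cluster 4 had 6 of 22 (10.0%), and cluster 10 had 6 of 21 (4.69%) with 1 lower. Il1rn, which encodes the IL-1 receptor antagonist, had the highest ratio in both classes, at 122.1 and 233.0 CPM in monocyte-like cells (log2 0.93) and 128.2 and 223.6 CPM in macrophage-like cells (log2 0.80). Etv3 and Sbno2, a pair of repressors in the anti-inflammatory response to IL-10, were higher in both. Etv3 stood at 26.2 and 45.0 CPM in monocyte-like cells (log2 0.78) and Sbno2 at 103.8 and 161.6 CPM (log2 0.64), with 0.49 and 0.58 in macrophage-like cells. Hif1a, the hypoxia factor, was higher in macrophage-like cells (206.5 and 328.2 CPM, log2 0.67), where the cell cycle gene Ccnd1 was lower (270.3 and 211.6 CPM, log2 -0.35). Batf and Saa3 in monocyte-like cells (log2 -0.19 and -0.18) and Bcl2l1 in macrophage-like cells (log2 -0.17) did not pass. Many of these targets also answer to NF-κB or HIF-1.

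Of the other inhibitors, 3 of 16 were higher in each class and none lower, a share near the 14.4% and 13.1% of all genes. Over all kept cells 2 of 16 were higher (14.6% of all genes), in cDC2-like cells 3 of 16 (10.6%) and in cluster 4 2 of 16 (10.0%). The mixed droplets (11.7%) and cluster 3 (8.11%) each had 1 of 16 higher. None of 16 passed in NK cell-like cells (10.7%) and none of 14 in cluster 10 (4.69%). In mature DC-like cells none of 13 was higher (10.7%) and 1, Cish, was lower (3.09%). Cish, an inhibitor induced by STAT5, stood at 27.1 and 37.5 CPM in monocyte-like cells (log2 0.47) and 11.2 and 20.9 CPM in macrophage-like cells (log2 0.89). Socs1, which restrains interferon receptors, and Socs6 were the others in monocyte-like cells (212.2 and 271.7 CPM, log2 0.36, and 33.6 and 48.9 CPM, log2 0.54). Socs2 (7.43 and 12.2 CPM, log2 0.70) and Dusp22 (log2 0.35) were those in macrophage-like cells. Socs2 in monocyte-like cells had a log2 ratio of 0.51 and did not pass. The phosphatase Ptpn11 was near even in both (log2 -0.10 and -0.11), as were Ptpn1 in monocyte-like cells (0.07) and Pias4 in macrophage-like cells (-0.09).

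Of the other kinases and STATs, 2 of 9 were higher in monocyte-like cells (Stat4 and Stat5a) and 4 of 9 in macrophage-like cells, among them Jak2 and Stat5a, beside 14.4% and 13.1% of all genes. None passed over all kept cells (9 tested, 14.6% of all genes higher), in mature DC-like cells (9, 10.7%) or in cluster 10 (8, 4.69%). The mixed droplets (11.7%), cDC2-like cells (10.6%), NK cell-like cells (10.7%), cluster 3 (8.11%) and cluster 4 (10.0%) each had 1 of 9 higher. Stat5a stood at 14.1 and 18.0 CPM in monocyte-like cells (log2 0.35) and 7.43 and 12.0 CPM in macrophage-like cells (log2 0.68), and Jak2 at 61.4 and 90.8 CPM in macrophage-like cells (log2 0.56). Stat6 did not pass in either (log2 0.14 and 0.04). Stat5b (log2 0.31) and Jak3 (-0.11) in monocyte-like cells and Stat4 (-0.08) in macrophage-like cells did not pass either.

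Of the other receptors, 3 of 8 tested were higher in monocyte-like cells and 4 of 9 in macrophage-like cells, with none lower in these classes, beside 14.4% and 13.1% of all genes. Csf3r, the G-CSF receptor, stood at 36.1 and 59.2 CPM in monocyte-like cells (log2 0.72) and 33.7 and 48.1 CPM in macrophage-like cells (log2 0.51). It was lower in KO over all kept cells (95.4 and 71.0 CPM, log2 -0.43) and in cluster 10 (155.8 and 90.4 CPM, log2 -0.77). The neutrophil gene S100a8 was also lower in KO in both (1448 and 358.5 CPM, and 1120 and 357.3 CPM). Lifr (4.28 and 6.54 CPM, log2 0.61) and Il21r were the others in monocyte-like cells, and Ifnar1 (70.8 and 101.7 CPM, log2 0.52), Ifngr1 and Il21r in macrophage-like cells. Ifnar2 was near even in both (log2 0.00 and -0.12), as was Il11ra1 (-0.20 and 0.01, short of the rule). Osmr, the partner of gp130 for oncostatin M, held fewer than 20 UMIs in both classes. Of the other ligands, 3 of 6 tested were higher and 1 lower in monocyte-like cells, and 1 of 5 higher in macrophage-like cells, beside the same shares of all genes. The lower one was Lif, at 1.98 and 0.878 CPM (log2 -1.07). Ebi3, a subunit of IL-27 and IL-35, was higher in both (9.98 and 14.3 CPM, log2 0.52, and 18.6 and 26.9 CPM, log2 0.52), and Il6 stood at 6.38 and 8.68 CPM in monocyte-like cells (log2 0.45, 0.02 to 0.87) and was lower in KO in cluster 3 (7.58 and 4.16 CPM, log2 -0.90). Il27 itself did not pass (log2 0.27 and 0.32).

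The Ly6G antibody tag, a protein mark of granulocytic cells that took no part in the clustering, gave another reading of cell type. The tenth of cells with the most Ly6G tags was 1019 WT cells with at least 102 tags, 76.3% of them neutrophil-like or mixed droplets, and 1514 KO cells with at least 20 tags, 52.8% of them so. Osm stood at 378.0 CPM in these cells against 301.5 in the other WT cells, and at 318.4 against 240.5 in KO. Il10rb was also above the other cells (130.6 against 108.6 CPM in WT, 131.2 against 120.1 in KO) and Il6st below them (12.4 against 15.5, with overlapping intervals, and 15.7 against 19.5). Socs3 did not follow the tag, with 198.8 against 191.7 CPM in WT and 280.0 against 280.5 in KO. These directions were not particular to Ly6G. In the tenth with the most Ly6C tags Osm stood at 350.7 against 307.9 CPM in WT and 307.3 against 243.9 in KO. Il10rb was above the other cells there too, and Il6st below them with overlapping intervals. In the tenth with the most CD11c tags Osm was lower instead (280.0 against 321.6 CPM in WT, 217.2 against 263.6 in KO). Il10rb and Il6st were also lower there. As the tag thresholds differ between the libraries, levels by tag were compared only within each.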

How the data were processed

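The values deposited by the authors are raw UMI counts for each gene or tag in each barcode, and the matrix headers name Cell Ranger 5.0.0. Per the submitters' processing notes reads were aligned to mm10, and Seurat 4.0 is also named. The sources used here do not state how cells were called. The 10 genes and all lists were chosen with earlier results of these data known.

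Cells with at least 200 genes, 500 UMIs and at most 10% mitochondrial UMIs were kept (99.5% of WT and 99.2% of KO barcodes). Both libraries were clustered together with scanpy 1.11.5 and leidenalg 0.10.2: counts per 10000, log, 2000 variable genes per library (leaving out Vsir, Xist and Y-linked genes, and those of the mitochondrion, ribosome and cell cycle), 30 components, 15 neighbours, resolution 1, seed 7. No doublet caller was run. A name needed at least 4 markers of 1 of 16 lists, each 1.5-fold over other cells and in 20% of cells. A non-monocytic cluster with at least 5 macrophage markers in 60% of its cells was called mixed. These thresholds were set after clusters had been seen, on an earlier clustering whose result varied between computing environments. It was replaced by one in exact arithmetic, with the thresholds kept.

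UMIs were summed per class and library and given per 1000000 (CPM), with exact Poisson intervals. Log2 ratios have a pseudocount of 1 UMI and exact conditional binomial 95% intervals, for groups with at least 100 cells in each library. Shares were taken after thinning to 1000 UMIs, and cells with fewer than 1000 UMIs were left out of them. A single library stood for each genotype, so nothing was tested. The ratio rule was run on simulated Poisson counts, the model that its intervals assume. The simulation held no variation between cells, libraries or animals, so it cannot show how the rule would fare across replicates. In each other pathway list the 2 highest and 2 lowest ratios among genes with at least 100 UMIs were named in monocyte-like and macrophage-like cells, and genes past the rule beside them were named after their values were seen. Promoters came from RefSeq, GRCm38.p6.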

Additional observations from a re-analysis of the deposited data

Results flagged for a closer look

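Osm differed in opposite directions between cell groups: its log2 ratio KO over WT was 0.4785 in cDC2-like cells and -0.4352 in cluster 11, the monocyte-like cluster led by Ceacam1, Spn and Adgre5. This difference itself was not tested, since each group holds 1 library. The Osm level was 123.6 CPM in WT and 172.3 CPM in KO cDC2-like cells, and 391.5 and 289.2 CPM in cluster 11.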

How the results depend on the processing

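No paired analysis was possible because WT and KO are represented by a single library. Of 35 member ratios past the size rule, 253 values under alternatives all kept their direction, and 185 of the 205 alternatives that apply the rule still passed. Socs3 passed in 56 of 56, with log2 ratios from 0.44 to 2.44. These counts leave out the 1.5-fold rule and a rule with a higher UMI minimum. The counts do include a changed pseudocount, which barely moves a ratio at these UMI counts and leaves its interval as it was. That alternative could hardly lose a call, so its passes say little about robustness. Every alternative reread the same WT and KO libraries. Socs3 fell short of 1.5-fold over all kept cells (1.45-fold), in the mixed droplets (1.42-fold), in cluster 4 (1.43-fold) and in cluster 10 (1.41-fold). It stayed past 1.5-fold in monocyte-like, macrophage-like, cDC2-like, mature DC-like and NK cell-like cells and in cluster 3. Over all kept cells the number higher went from 4 to 1 when ratios were scaled by the median gene (Il6st 0.25, Il10ra 0.30 and Bcl3 0.30 no longer passed) and to 0 with a 1.5-fold rule. The number lower there went from 1 to 2 under that scaling and to 0 with clusters weighted equally. In monocyte-like cells the number higher went from 5 to 3 with a stricter cell filter (Stat3 0.32 and Il6ra 0.31 no longer passed) and to 1 with the 1.5-fold rule. In macrophage-like cells the number higher went from 3 to 6 as a mean over cells. That mean also gives no interval and was counted by size alone, a looser rule. The number higher went to 1 with the 1.5-fold rule. The number lower there went from 0 to 1 under median scaling, and by size alone with clusters weighted equally and as a mean over cells. The causes of the other shifts were not tested. Bcl3 in macrophage-like cells was lost when each library was clustered alone (0.10) and without cluster 1 (0.29). Osm in cDC2-like cells was lost with pathway genes left out of the clustering (0.27). In mature DC-like cells Osm and Jak1 were each lost under 3 alternatives, down to 0.20 and 0.35. Clusters moved with the seed: another seed, added after the data were seen, gave 3239 and 2851 monocyte-like and 1289 and 3211 macrophage-like cells, with Socs3 at 0.53 and 0.87. Depth limits Il10, at 69 and 52 UMIs, and genes under 20 UMIs.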
